A study of Mus musculus with 6 samples.

Results

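Ly6a, Clu, Anxa1, Il1rn, Il33, Msln, Krt7, Wwtr1 and Yap1 are genes known from fetal-like and regenerating epithelium, and their promoter chromatin was compared between colonic organoids grown without and with TNFα. The 9 genes were taken as a list of names and were found by symbol in the GENCODE annotation of GRCm38, which holds 55341 symbols, 20780 of them autosomal protein-coding genes. All 9 are autosomal and protein-coding. Organoids are epithelial cultures grown in a gel as closed structures, here from the wild-type colon of C57BL/6 mice. One culture condition (wt) had no added cytokine, and the other (wt+TNFα) received 40 ng/ml TNFα for 3 weeks. Medium conditioned by L-WRN cells was common to both conditions, as were serum, the kinase inhibitor Y-27632, the TGFβ receptor inhibitor A83-01, the p38 inhibitor SB203580, gastrin, N-acetyl cysteine and a CHIR compound. The trimethylated histone marks H3K4me3 and H3K27me3 were measured by ChIP-seq with 1 library per mark and condition. Organoids from several culture wells were collected for ChIP, as the study's methods describe, and the number of animals is not given in the sources used here. No difference below therefore has a replicate check, no error or p-value can be given, and the effect of TNFα cannot be told apart from other differences between the cultures.

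H3K4me3 sits at the starts of genes that are transcribed or poised for it, while H3K27me3 is laid down by Polycomb repressive complex 2 and marks genes held silent. A promoter with both marks is called bivalent. After injury the intestinal epithelium can pass into a state that resembles the fetal gut, in which Yap1 and Wwtr1 (also called TAZ) take part. These are the transcriptional co-activators that the Hippo kinases restrain, and they bind DNA through TEAD factors. Ly6a (Sca-1) is the surface antigen by which such cells are often sorted. Clu encodes the secreted chaperone clusterin and marks cells that restore the crypt after damage. Msln (mesothelin) is a surface glycoprotein, Krt7 a simple-epithelium keratin, Anxa1 a ligand of formyl peptide receptors, Il1rn the antagonist of the interleukin-1 receptor, and Il33 an alarmin cytokine.

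The promoter sequences of this group ranged from CpG-dense to CpG-poor, and 5 stretches are printed because the marks described below lay on them or, at Il33, were not called on them. They are given 5′ to 3′ on the strand of the gene, in lower case with CG dinucleotides in capitals. The first pair was cut from the GRCm38.p6 genome, and the others came from the RefSeq promoter table of that build. The first pair is the DNA upstream of the gene start that carried H3K4me3 in wt+TNFα alone, for Wwtr1 chr3:57576180-57576469 (minus strand, 290 bases) and for Krt7 chr15:101410901-101411042 (plus strand, 142 bases). The others are the 250 bases before the RefSeq start of Wwtr1 at chr3:57575911-57576160 (minus strand), of Yap1 at chr9:8004597-8004846 (minus strand) and of Il33 at chr19:29924863-29925112 (plus strand).
Wwtr1, H3K4me3 in wt+TNFα alone: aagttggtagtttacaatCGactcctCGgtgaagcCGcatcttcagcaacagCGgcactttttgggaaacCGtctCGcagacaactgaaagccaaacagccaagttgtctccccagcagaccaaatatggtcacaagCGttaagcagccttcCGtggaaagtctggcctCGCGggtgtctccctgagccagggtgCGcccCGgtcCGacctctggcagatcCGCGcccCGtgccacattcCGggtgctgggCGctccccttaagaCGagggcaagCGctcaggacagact
Krt7, H3K4me3 in wt+TNFα alone: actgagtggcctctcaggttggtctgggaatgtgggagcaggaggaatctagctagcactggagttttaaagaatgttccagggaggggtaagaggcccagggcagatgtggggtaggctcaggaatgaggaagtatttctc
Wwtr1, before the start: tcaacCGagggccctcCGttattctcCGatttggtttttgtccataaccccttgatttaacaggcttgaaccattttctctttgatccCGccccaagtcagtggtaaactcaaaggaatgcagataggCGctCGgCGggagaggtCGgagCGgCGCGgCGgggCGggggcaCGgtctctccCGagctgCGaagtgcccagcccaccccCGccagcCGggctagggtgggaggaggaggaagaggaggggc
Yap1, before the start: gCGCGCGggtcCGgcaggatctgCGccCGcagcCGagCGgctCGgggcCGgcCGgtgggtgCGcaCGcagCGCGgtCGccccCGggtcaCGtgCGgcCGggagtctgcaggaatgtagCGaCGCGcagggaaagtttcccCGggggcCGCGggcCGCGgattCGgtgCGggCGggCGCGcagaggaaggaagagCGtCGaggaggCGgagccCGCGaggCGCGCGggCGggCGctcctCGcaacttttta
Il33, before the start: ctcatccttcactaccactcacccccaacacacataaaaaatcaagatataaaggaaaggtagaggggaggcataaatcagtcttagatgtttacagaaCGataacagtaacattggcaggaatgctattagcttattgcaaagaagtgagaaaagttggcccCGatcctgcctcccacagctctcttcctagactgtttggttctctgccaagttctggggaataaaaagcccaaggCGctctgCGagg

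The 4 stretches other than that of Yap1 overlapped no annotated exon. The far end of the Yap1 stretch overlapped 1 annotated exon, of the long noncoding RNA Gm45494. The Wwtr1 stretch with H3K4me3 in wt+TNFα alone held 20 CG dinucleotides (6.90 per 100 bases), and the Krt7 stretch held 0. Before the starts, the density was 17.6 per 100 bases at Yap1, 7.20 at Wwtr1 and 1.60 at Il33. The letters GGAATG, the core that TEAD factors bind, were searched on both strands. They occurred 2 times in the Krt7 stretch and 1 time in each of the other 4, but 0 times in the 250 bases before the first start of Il1rn and before the downstream start of Krt7. In 14.7% of 32841 RefSeq promoters of 300 bases (250 before and 50 after the start) these letters occurred at least once, so a match is a description and not a binding site. In promoters of that length, Yap1 had 49 CG dinucleotides, more than 99.0% of promoters, against a median of 7.0 over all of them. Wwtr1 had 20 (73.5% of promoters had fewer), the downstream start of Krt7 had 21 (75.2%), Il33 had 6 (43.6%), Anxa1 had 3 (23.3%) and the first start of Il1rn had 1 (5.42%). Of the 9 genes, 6 had an entry in the table. The AP-1 letters TGANTCA, found in 7.81% of promoters, occurred 1 time at the first start of Il1rn (a palindromic match is counted once) and 0 times at the other 5 genes' first listed starts. The NF-κB motif, found in 4.51% of promoters, had 0 matches in the windows of these 6 genes.

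H3K4me3 was called at the promoters of 5 of the 9 genes in wt (Anxa1, Il1rn, Krt7, Wwtr1 and Yap1) and of 6 in wt+TNFα, where Msln was added. H3K27me3 was called at 3 in wt (Clu, Msln and Wwtr1) and at 1 in wt+TNFα (Clu). Promoters reached 1000 bp to either side of each annotated transcript start, and an overlap of 1 bp with a called peak counted. Over the 20780 autosomal protein-coding genes, 51.8% had H3K4me3 in wt and 52.5% in wt+TNFα, and 22.3% had H3K27me3 in wt and 27.5% in wt+TNFα. The shares of the group lay near these for H3K4me3. For H3K27me3 the count of the group was lower in wt+TNFα, whereas the share over all genes was higher there. With H3K27me3 peaks of −log10 q of at least 2 alone, the count of the group was 1 in each condition, Wwtr1 in wt and Clu in wt+TNFα. A called peak rests on all cells of a culture, so fewer cells with a mark and less of the mark per cell cannot be told apart.

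**Figure D1:**
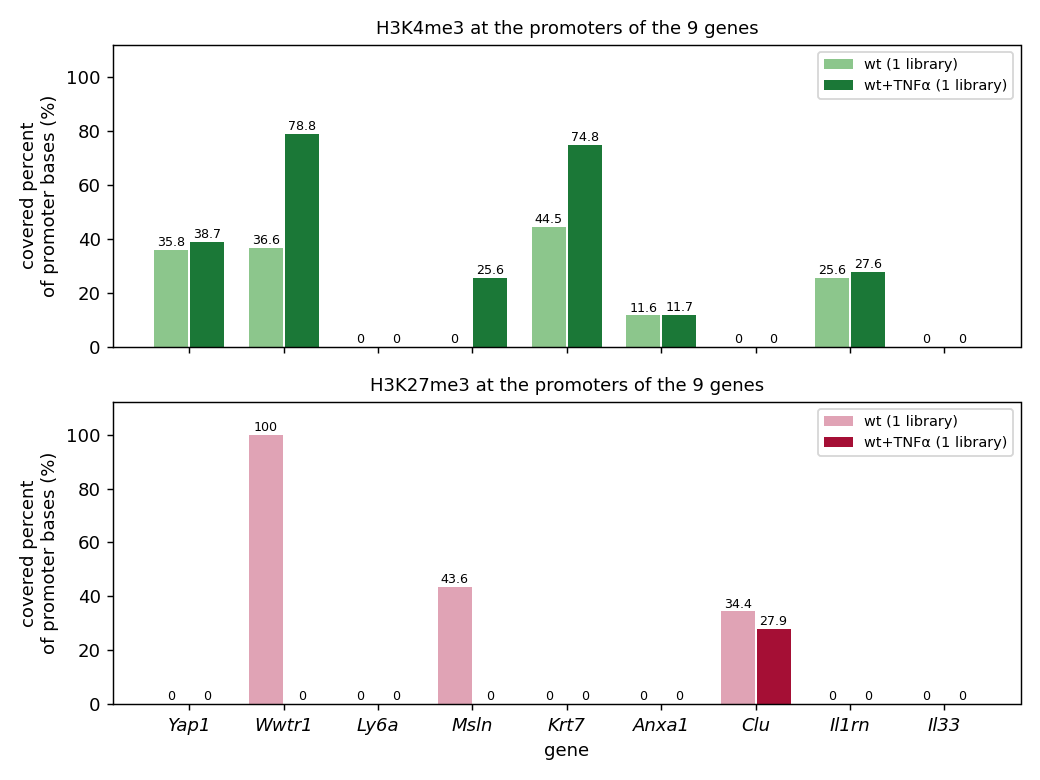
Covered percent, the share of the merged promoter bases of a gene under called peaks, for H3K4me3 (top) and H3K27me3 (bottom) in wt (light bars) and wt+TNFα (dark bars), 1 library each with no error bars. Wwtr1, Krt7 and Msln had the 3 largest differences in H3K4me3, and H3K27me3 went from 100% to 0 at Wwtr1 and from 43.6% to 0 at Msln.

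Where H3K4me3 was called, promoter bases were gained and not lost. None of the 9 genes had an H3K4me3 peak in wt alone (0.741% of all autosomal protein-coding genes did), and 1, Msln, had one in wt+TNFα alone (1.50%). By base, 0 of 9 lost promoter bases of H3K4me3 (21.4% of all) and 6 gained some (42.0%), although 2 lost some when promoters of 2000 bp were used. The gains were small at 3 genes, 6 bp at Anxa1, 83 bp at Il1rn and 196 bp at Yap1, and larger at the other 3, 880 bp at Wwtr1, 1033 bp at Krt7 and 1478 bp at Msln. For H3K27me3, 2 of 9 had a peak in wt alone, Msln and Wwtr1 (1.28%), and 0 in wt+TNFα alone (6.48%). The lowest −log10 q was 0.302 in the wt list and 0.747 in the wt+TNFα list, so a peak as weak as that of Msln in wt (0.481) would not be in the wt+TNFα list. With both lists held to the higher of these floors, a setting chosen after seeing the data, 1 of the 9 genes, Wwtr1, had H3K27me3 in wt alone (0.866% of all). Promoter bases of H3K27me3 were lost at 3 (5.50%) and gained at 1, Clu (18.2%). When whole peaks were subtracted, 2 genes had lost H3K27me3 (Msln and Wwtr1, against 1.54% of all) and 1 had gained H3K4me3 (Msln, against 1.88%). Both marks met at 1 of the 9 genes in wt, Wwtr1 (5.40% of all), and at 0 in wt+TNFα (6.72%), and whether they lay in the same cells cannot be told apart. A loss of the H3K27me3 peak together with gained H3K4me3 bases was found at Msln and Wwtr1, 2 of 9 against 0.717% of all, but at Wwtr1 alone, 1 of 9 against 0.553%, with both H3K27me3 lists at the same floor. At Ly6a and Il33, 2 of 9, no list had a promoter peak (25.9%). The median covered percent of H3K4me3 over the 9 genes was 11.6% in wt and 25.6% in wt+TNFα, against 8.21% and 9.76% over all autosomal protein-coding genes. These medians were the values of Anxa1 in wt and of Msln in wt+TNFα, and the median difference per gene was 2.04 percentage points, against 0 over all. The median of H3K27me3 was 0 for both sets of genes in both conditions. More reads were sequenced for H3K4me3 in wt+TNFα than in wt, as the study's reporting summary gives them, and the part of this depth in the gains was not tested.

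**Figure D2:**
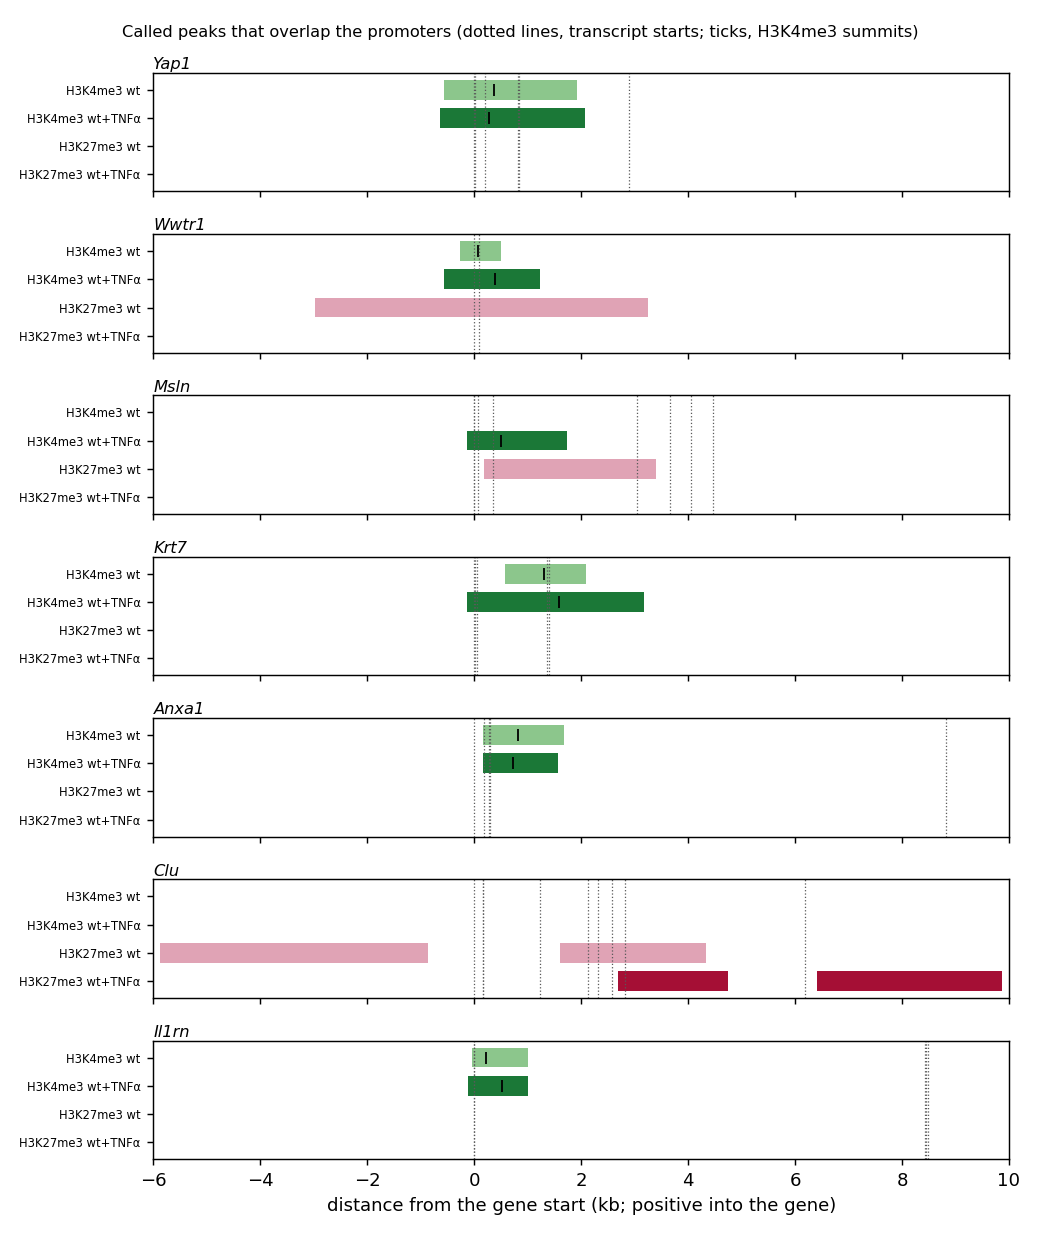
Called peaks at the promoters of the 7 genes that had any, drawn by their distance in kb from the gene start (positive into the gene), with 1 row per mark and condition, dotted lines at transcript starts within the plotted range and ticks at the H3K4me3 summits. At Wwtr1 a wt H3K27me3 peak spans the narrow wt H3K4me3 peak, and in wt+TNFα a wider H3K4me3 peak stands alone.

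Among the regulators, Wwtr1 had H3K27me3 in wt alone and wider H3K4me3 in wt+TNFα, whereas Yap1 had the same marks in both conditions. Wwtr1 lies on chromosome 3 from 57455649 to 57575910 on the minus strand, and its 2 transcript starts, 82 bp apart, share 1 promoter window of 2083 bp. In wt an H3K27me3 peak of 6231 bp reached from 2981 bp before the start to 3249 bp into the gene. It covered 100% of the promoter. Its fold enrichment of 3.10 over the local background was above that of 94.8% of the peaks in its list, and its −log10 q of 5.41 above 95.8%. In wt+TNFα the covered percent was 0, and the nearest H3K27me3 peak lay 12.8 kb from a start. A loss as large was found at 0.101% of autosomal protein-coding genes.

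H3K4me3 at Wwtr1 was called in both conditions, under both transcript starts. The peak was 762 bp wide in wt, from chr3:57575418 to 57576179, and 1789 bp wide in wt+TNFα, from 57574681 to 57576469. It grew on both sides, from 269 to 559 bp before the start and from 492 to 1229 bp into the gene, so that the DNA printed above came under the mark. The covered percent went from 36.6% to 78.8%, and a gain at least as large was found at 0.178% of all. The wt peak was among the weaker ones of its list, with a fold enrichment of 8.0 that was above 10.1% of the peaks. The wt+TNFα peak stood near the middle of its own list, with 30.0, above 58.0%. These values were scaled within each library and the lists differ in length and depth, so they describe each peak in its own list and no change is read from them.

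Yap1 lies on chromosome 9 from 7931999 to 8004596 on the minus strand. Its H3K4me3 peak was wide and strong in both conditions, 2504 bp in wt and 2700 bp in wt+TNFα. Its fold enrichments, 42.1 and 37.6, were above 87.4% and 77.2% of their lists. The mark covered 5 of the 7 distinct transcript starts in each condition, and the starts 2893 bp and 38775 bp into the gene had none. The covered percent was 35.8% in wt and 38.7% in wt+TNFα. The nearest H3K27me3 peak lay 129 kb from a start in wt and 127 kb in wt+TNFα. The 2 co-activators thus differed in wt, where Wwtr1 carried both marks and Yap1 H3K4me3 alone.

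Among the surface and structural genes, Msln and Krt7 had more H3K4me3 in wt+TNFα and Ly6a had no mark. Msln lies on chromosome 17 from 25748613 to 25754378 on the minus strand. In wt its promoters had no H3K4me3, and the nearest peak lay 19.3 kb away. An H3K27me3 peak of 3217 bp lay inside the gene, from 177 to 3393 bp after the gene start, and covered 43.6% of the promoter bases. This peak was weak, with a fold enrichment of 1.99 (above 18.6% of its list) and a −log10 q of 0.481 (above 19.4%, and under the lowest value of the wt+TNFα list, 0.747). In wt+TNFα no H3K27me3 peak was nearer than 8.94 kb, and an H3K4me3 peak of 1854 bp reached from 126 bp before the gene start to 1727 bp into the gene. That peak lay over the starts at 0, 1, 64 and 351 bp, covered 25.6% of the promoter bases and was also weak within its list (fold enrichment 8.80, above 11.6%). A gain at least as large was found at 0.659% of autosomal protein-coding genes, and a loss of H3K27me3 at least as large at 0.602%. Both of the peaks that differ at Msln therefore came from the weaker end of their lists, and with the peaks over the median −log10 q of each list both differences were 0.

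Krt7 lies on chromosome 15 from 101411043 to 101430313 on the plus strand, and its 5 transcript starts form an upstream group (at 0, 9 and 60 bp) and a downstream pair (at 1359 and 1406 bp). In wt an H3K4me3 peak of 1516 bp, from 574 to 2089 bp into the gene, lay over the downstream pair alone. In wt+TNFα a peak of 3323 bp, from 142 bp before the gene start to 3180 bp into the gene, lay over all 5 starts. It was wider than 94.8% of the peaks in its list. The covered percent went from 44.5% to 74.8%, and a gain at least as large was found at 0.457% of all. Within its own list, the wt peak had a fold enrichment above 6.94% of the peaks, and the wt+TNFα peak one above 69.9%. No H3K27me3 was called at the promoters in either condition, with the nearest peak 21.9 kb away in wt and 20.2 kb in wt+TNFα. The upstream starts thus lay within the same called peak as the downstream pair in wt+TNFα, and not under a separate called peak.

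Ly6a lies on chromosome 15 from 74994877 to 74998031 on the minus strand. None of its 6 transcript starts had a peak of either mark in either condition. The gene sat in a window of 198 kb without a peak in any of the 4 lists. The nearest H3K4me3 peak lay 41.0 kb away in wt and 40.2 kb in wt+TNFα, at the promoter of the related Ly6e, where the width was 1564 bp in wt and 2560 bp in wt+TNFα. The other Ly6 genes looked at, Ly6c1, Ly6c2 and Ly6d, had no promoter peak in any list either. A promoter without a called peak may still carry signal below the threshold of the peak caller.

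Of the secreted and signalling genes, Anxa1 and Il1rn had an H3K4me3 peak in both conditions and Il33 had no mark. Clu had H3K27me3 in both conditions, at positions that overlapped only in part. Anxa1 lies on chromosome 19 from 20373428 to 20390944 on the minus strand. Its H3K4me3 peak was 1510 bp wide in wt and 1410 bp in wt+TNFα, and the covered percent was 11.6% and 11.7%. The mark lay over the starts at 183, 271 and 293 bp in both conditions, and over none of the starts deep in the gene. It was the one gene of the group with a narrower H3K4me3 peak in wt+TNFα.

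Il1rn lies on chromosome 2 from 24336853 to 24351494 on the plus strand. Its H3K4me3 peak was 1051 bp wide in wt and 1122 bp in wt+TNFα, and covered 25.6% and 27.6% of the promoter bases. Only the first 2 of its 5 distinct starts were under the peak, in both conditions. The fold enrichment was above 13.1% of the wt list and above 24.3% of the wt+TNFα list. These CpG-poor first starts thus had a peak that was called in both conditions and was weak in each list.

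Clu lies on chromosome 14 from 65968483 to 65981547 on the plus strand. It had no H3K4me3 at its promoters, and the nearest peak lay 130 kb from a start in both conditions. H3K27me3 covered 34.4% of its promoter bases in wt and 27.9% in wt+TNFα, with 1215 bp lost and 771 bp gained. In wt a peak of 5004 bp ended 871 bp before the gene start and another, of 2734 bp, ran from 1604 to 4337 bp into the gene. In wt+TNFα a peak of 2055 bp ran from 2689 to 4743 bp into the gene and another, of 3446 bp, from 6416 to 9861 bp. The wt peaks had −log10 q of 0.699 and 0.865, and the wt+TNFα peaks of 2.0 and 1.29, each within its own list. Within 1000 bp of the gene start itself the mark covered 6.50% in wt and 0 in wt+TNFα, but that wt value came from the peak with a −log10 q of 0.699, under the lowest value of the wt+TNFα list, 0.747. Over the gene and 50 kb on each side the mark covered 29.9% and 58.9%. The promoter value was thus lower in wt+TNFα and that of the surrounding DNA higher, as also at Wwtr1, where the wider region went from 3.09% to 6.02%, and at Msln, from 17.3% to 26.1%. With H3K27me3 peaks of −log10 q of at least 2 alone, the promoter difference (wt+TNFα minus wt) was 16.6 percentage points. With equal covered length on the autosomes it was -34.4, and there and with 1 start per gene no H3K27me3 was called at Clu in wt+TNFα.

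Il33 lies on chromosome 19 from 29925114 to 29960718 on the plus strand. Its 5 transcript starts had no peak in any list, and no peak of either mark was called within a window of 172 kb around the gene. The nearest H3K4me3 peak lay 78.0 kb away in both conditions. The nearest H3K27me3 peak lay 162 kb from a start in wt and 33.3 kb in wt+TNFα. Ly6a and Il33 were alike in having neither mark, whereas Clu had H3K27me3 alone.

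Peak width set Krt7 and Wwtr1 apart from the other 3 genes with H3K4me3 in both conditions. The wt+TNFα width divided by the wt width was 2.35 at Wwtr1 and 2.19 at Krt7, against 1.08 at Yap1, 1.07 at Il1rn and 0.934 at Anxa1. Over the 10606 autosomal protein-coding genes with a peak in both conditions the median ratio was 1.07, with 0.880 and 1.44 at the 5th and 95th percentiles. The ratio at Wwtr1 was above 99.5% of these genes and that at Krt7 above 99.3%. A ratio of at least 2, a limit chosen after the values were seen, was reached by 2 of the 5 genes and by 1.12% of all.

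**Figure D3:**
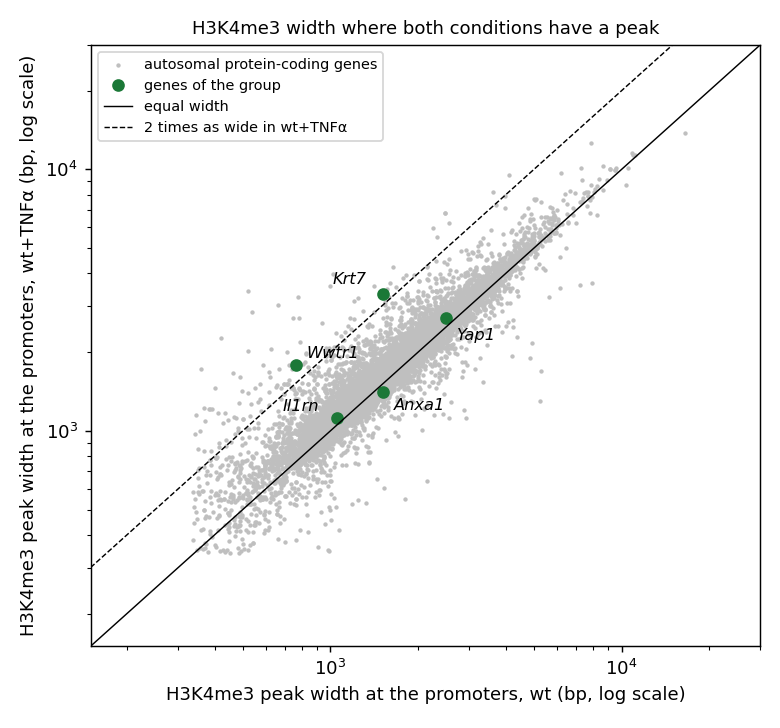
Width in bp of the H3K4me3 peaks at the promoters in wt (x axis) and wt+TNFα (y axis), both on log scales, for the autosomal protein-coding genes with a peak in both conditions (grey points) and the 5 genes of the group among them (green points, named), with lines at equal width and at 2 times the wt width. Krt7 and Wwtr1 lie above the dashed line, and Anxa1, Il1rn and Yap1 lie near the solid one.

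The combination of marks was common for 7 of the genes and rare for Msln and Wwtr1. The genes Anxa1, Il1rn, Krt7 and Yap1, had H3K4me3 alone in both conditions, as did 44.5% of autosomal protein-coding genes, and Clu shared H3K27me3 alone in both conditions with 15.5%. The pattern of Wwtr1, H3K4me3 in both conditions with H3K27me3 in wt alone, was shared by 132 genes (0.635%). The pattern of Msln, H3K27me3 in wt alone with H3K4me3 in wt+TNFα alone, was found at 25 genes (0.120%). This pattern of Msln ended with both H3K27me3 lists at a common floor or at −log10 q of at least 2, where the H3K27me3 peak was not counted. It also ended with equal covered length on the autosomes, where the H3K4me3 peak was not, and with the peaks over the median −log10 q, where neither was. With the peaks over the median, the pattern of Wwtr1 ended too, since its H3K4me3 was then called in wt+TNFα alone. Likeness within such a pattern was measured as the distance over the 4 covered percents and 4 log2 peak widths. The genes nearest to Wwtr1 were Npcd, Bmp3, which encodes a bone morphogenetic protein, and Wwc2, at distances of 14.5, 24.5 and 25.6. Npcd went from 100% to 0 in H3K27me3 and from 34.5% to 65.1% in H3K4me3. Those nearest to Msln were Efemp1, which encodes an extracellular matrix protein, L3mbtl4 and Entpd3, at 17.3, 17.7 and 17.9. Efemp1 went from 34.3% to 0 in H3K27me3 and from 0 to 21.4% in H3K4me3.

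The Hippo pathway around Yap1 and Wwtr1 was described through 21 further genes, the kinases and their adaptors, upstream regulators, TEAD factors and targets, all of which were in the annotation. H3K4me3 was called at 18 of 21 in each condition (51.8% and 52.5% of all genes), and H3K27me3 at 7 in wt and 4 in wt+TNFα (22.3% and 27.5%). H3K27me3 in wt alone was found at 4 genes, the kinase Lats2, the LATS-binding adaptor Ajuba, the factor Tead2 and the YAP target Ccn2 (1.28%). Their −log10 q ranged from 0.794 to 1.69. These 4 peaks were thus over the lowest value of the wt+TNFα list, 0.747, the common floor at which 0.866% of all had such a loss. Among peaks of at least 2, 0 of these 4 would be counted (0.654%). Ankrd1, another target, had it in wt+TNFα alone (6.48%). At Ccn2 H3K27me3 went from 35.2% to 0 covered, and H3K4me3 was 446 bp wide in wt and 742 bp in wt+TNFα. At Ankrd1 H3K27me3 covered 0 in wt and 45.3% in wt+TNFα, with no H3K4me3 in either condition. The 2 targets thus differed in direction. The H3K27me3 peaks behind this had −log10 q of 1.24 at Ccn2 in wt and 1.25 at Ankrd1 in wt+TNFα. Neither would be counted among peaks of at least 2. At the target Ccn1, which had no H3K27me3, the H3K4me3 width was 776 bp and 1039 bp. Lats2, Ajuba and Tead2 had covered percents of H3K27me3 in wt of 5.91%, 13.2% and 4.04%, well under the 100% of Wwtr1. Both marks met at 5 of 21 in wt (Stk3, Lats2, Ajuba, Tead3 and Ccn2) and at 2 in wt+TNFα (Stk3 and Tead3), against 5.40% and 6.72% of all. No Hippo gene reached a width ratio of 2 (1.12% of all), and the median over the 18 with a peak in both conditions was 1.15.

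Among 14 other genes tied to fetal-like or injured epithelium, H3K4me3 was called at 9 in each condition (51.8% and 52.5% of all), and H3K27me3 at 0 in wt and 1 in wt+TNFα (22.3% and 27.5%). The 1 gene was Spp1, which encodes the secreted protein osteopontin, with H3K27me3 over 0 of its promoter bases in wt and 100% in wt+TNFα. The Spp1 peak had a −log10 q of 1.93. Emp1, an epithelial membrane protein gene, was the 1 gene with a width ratio over 2 (1.12% of all), from 410 bp to 1173 bp. The median ratio over the 9 with a peak in both conditions was 1.32, against 1.07 over all genes. Ereg, Sprr1a, Reg3b and Reg3g had no peak in any list, 4 of 14 against 25.9% of all.

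**Figure D4:**
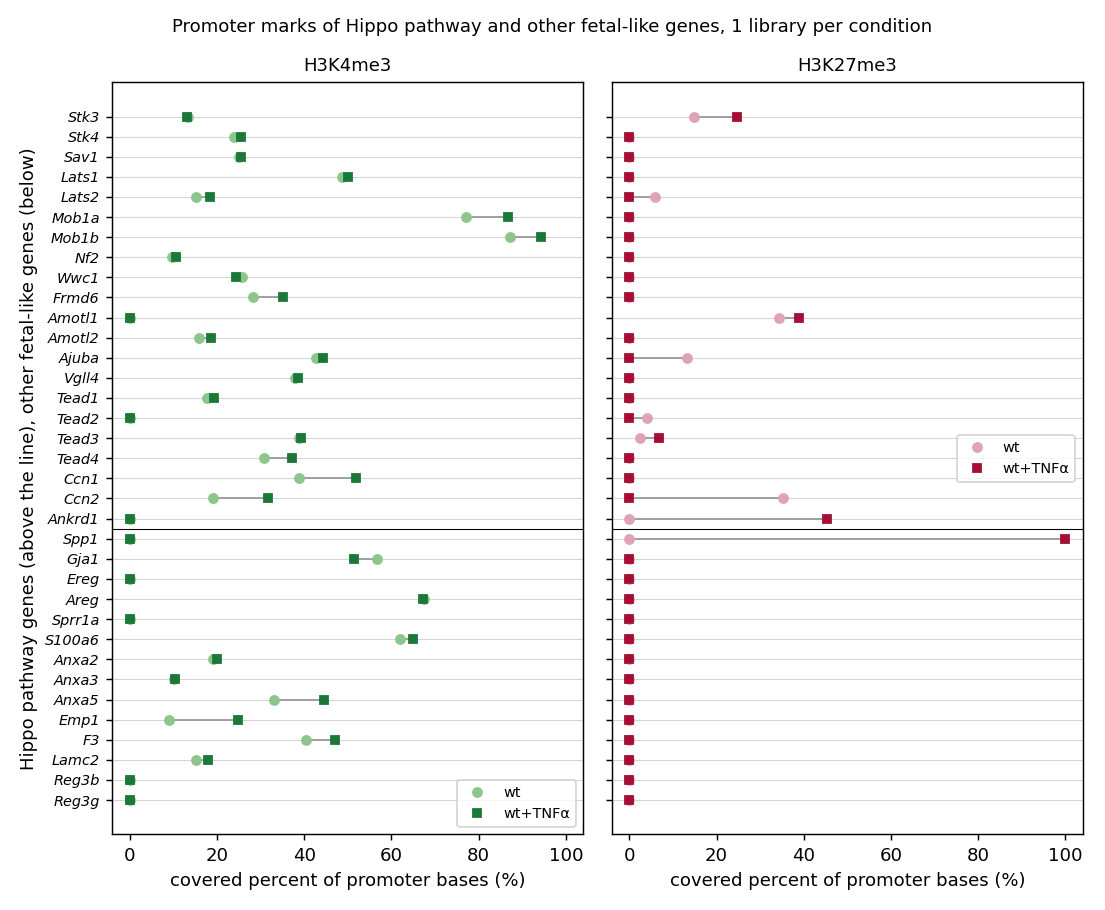
Covered percent of the promoter bases under H3K4me3 (left) and H3K27me3 (right) for the 21 Hippo pathway genes above the line and the 14 other fetal-like or injury-associated genes below it, in wt (circles) and wt+TNFα (squares), 1 library each. The longest lines in the H3K27me3 panel belong to Spp1 and Ankrd1, which were higher in wt+TNFα, followed by Ccn2, which was lower.

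The receptors, binding partners and relatives of the 9 genes formed a further set of 18. H3K4me3 was called at 7 of them in each condition (51.8% and 52.5% of all), and H3K27me3 at 2 in wt (22.3%) and 5 in wt+TNFα (27.5%), the latter share close to that of all genes. H3K27me3 in wt+TNFα alone was found at 4 (6.48% of all), the cytokine Il1b, the Il33 receptor Il1rl1, and the formyl peptide receptors Fpr1 and Fpr2. Il1rl1 was covered to 78.4%, Il1b to 31.2% and Fpr1 to 19.4%, whereas Fpr2 was touched over 0.581%. The −log10 q of these peaks was 3.17 and 2.16 at Il1rl1, 1.46 and 1.23 at Il1b, and 1.41 at Fpr2. At Fpr1 it was 0.852, near the lowest value of the wt+TNFα list, 0.747. Mslnl, next to Msln and 18.3 kb from it, had H3K27me3 in wt alone (1.28% of all), over 11.4%, from a peak with a −log10 q of 0.588 that also lay under the lowest value of the wt+TNFα list, 0.747. Muc16, whose product binds mesothelin, had no peak in any list. Il1rl1, Fpr1 and Fpr2 had no H3K4me3 in either condition, whereas Il1rap, the gene of the co-receptor shared by interleukin-1 and Il33, had it in both.

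The lists as a whole differed in ways that bear on these values. The H3K27me3 list held 30594 peaks over 101 Mb of autosomes in wt and 60540 over 228 Mb in wt+TNFα, so the loss at Wwtr1 ran against the direction of the lists. On chromosome X, where none of the 9 genes lies, the wt list of H3K27me3 held 0.597 Mb against 74.7 Mb with TNFα, and the Y chromosome had 3 peaks of H3K4me3 without TNFα and 0 with it. A difference in sex or donor between the cultures cannot be told apart from TNFα, and its part in the values of the 9 genes was not tested. H3K4me3, called at 51.8% of all genes in wt and 52.5% in wt+TNFα, was called at all 10 epithelial markers examined in both conditions, among them Epcam, Cdh1, Vil1 and Cdx2, and at 0 of 9 markers of other cells a culture could hold, such as Ptprc, Pecam1 and Col1a1. H3K27me3 was called at 0 of the epithelial markers in both conditions and at 6 of the others in wt (22.3% of all) and 7 in wt+TNFα (27.5%). Among H3K27me3 peaks with a −log10 q of at least 2, Wwtr1 was the 1 gene of the 9 that had a peak in wt alone, as did 0.654% of autosomal protein-coding genes.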

How the data were processed

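ChIP-seq for H3K4me3 and H3K27me3 was available for wt and wt+TNFα colonic organoids as 4 deposited peak lists, grouped as the sample labels give them. The reads and the 2 inputs were not analysed here. The authors aligned reads to GRCm38/mm10 (BWA 2.2 in the submitters' processing notes), removed duplicates with SAMtools 1.11 and called peaks against the input with MACS2, as narrow peaks for H3K4me3 and broad peaks for H3K27me3. The processing notes name MACS2 2.1.0 and the reporting summary another version. In the deposited lists the fold enrichment is a ratio of ChIP signal to local background, and the p-value and q-value of a peak stand as −log10, as the authors deposited them. The names of 3 lists, all but that of wt+TNFα H3K27me3, mention a spike-in. Fold enrichments and −log10 q were computed per library by the authors and were therefore ranked within their own list alone.

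Promoters (1000 bp to either side of each transcript start) were built from GENCODE release M21. Peaks were merged within each list, and presence, width, covered percent and bases called in one condition were computed by interval overlap in Python 3.11.15 with numpy 2.4.6; plots used matplotlib 3.10.9. All shares were taken over 20780 autosomal protein-coding genes. The calls of a peak in one condition alone were first tested on simulated peaks with known changes, and the covered percent on a constructed window. The other steps were not tested this way. The stretches with H3K4me3 in wt+TNFα alone were cut from the GRCm38.p6 genome, and the other sequences came from the RefSeq promoter table. Named genes were the 9 genes and the 3 nearest genes of each pattern shared by under 5% of genes. Genes of the related lists were named where they had a peak in one condition alone or both marks. Ccn1, Ly6e, Emp1, Il1rap and the genes without any peak were named after their values were seen. The genes, lists and comparisons were chosen with earlier results of these data known. A gene of the second related list is not reported here and is left out of the counts of that list. The alternatives were 9 settings of promoters, overlap and peaks, whole-peak subtraction and 2 other backgrounds, and a common floor of −log10 q for both H3K27me3 lists was added after seeing the data. With 1 library per condition and mark there was no test, and the precision of a peak edge is unknown.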

Additional observations from a re-analysis of the deposited data

How the results depend on the processing

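Of the counts of genes under alternative settings, 83 stayed within 1.5 times the reported count and 21 did not. The 83 include counts that could not change. Filters on H3K27me3 alone leave H3K4me3 counts as they were, and cuts to equal number or length leave the shorter wt lists whole. Restricted to the stronger peaks of each list (those over its median −log10 q), H3K4me3 was called at 1 of the 9 genes in wt and 3 in wt+TNFα, 2 genes (Krt7 and Wwtr1) had it in wt+TNFα alone, 3 gained bases, H3K27me3 was in wt alone at 1 and gained at 0. No share over all genes was computed at this setting, so these counts cannot be set against a background. The same holds for the other settings, except for H3K27me3 in wt alone at −log10 q of at least 2 and at the common floor. With H3K27me3 peaks of −log10 q of at least 2, the mark was at 1 gene in wt, in wt alone at 1 and lost at 1, each time Wwtr1. With both H3K27me3 lists at the higher of their lowest −log10 q, added after seeing the data, the mark was in wt alone at 1, Wwtr1. With equal covered length on the autosomes, H3K4me3 was in wt+TNFα alone at 0, without Msln, and H3K27me3 was in wt+TNFα at 0, without Clu, and gained at 0. With 1 start per gene, H3K27me3 was in wt+TNFα at 0, again without Clu, and gained at 0. H3K27me3 was gained at 0 also with upstream promoters, equal numbers of peaks or whole peaks subtracted. H3K4me3 was gained at 3 with an overlap of at least 200 bp and at 1 with whole peaks, and was lost at 2 with promoters of 2000 bp. The causes were not tested, except that whole-peak subtraction and a larger overlap drop shifted edges by construction.

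By gene, the H3K27me3 difference at Wwtr1 was -100 under all 9 settings and the added one, and the H3K4me3 gains at Wwtr1 and Krt7 stayed positive. Only the filters on −log10 q could have changed that H3K27me3 difference. The wt peak spanned every promoter definition, the nearest wt+TNFα peak lay 12.8 kb from a start, and the cuts to equal lists shortened the wt+TNFα list alone. The H3K4me3 gain at Msln was 0 with the stronger peaks alone and with equal covered length, and its H3K27me3 loss was 0 under both filters on −log10 q and at the common floor. The sign turned at Clu, where the H3K27me3 difference was 16.6 with −log10 q of at least 2, and at Anxa1, where the H3K4me3 difference was -0.674 with promoters of 2000 bp. Over genes of all types the background shares were 0.851% for H3K4me3 in wt+TNFα alone, 9.95% for H3K4me3 lost, 19.4% for H3K4me3 gained and 3.39% for H3K27me3 lost. No paired analysis was possible because each condition and mark has 1 library. The depth of the reads behind each peak is not in the lists.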
